A study of Mus musculus with 36 samples.

Results

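TBP summits that lay inside genes but away from gene ends were examined in mouse embryonic stem (ES) cells. A summit, the highest point of a called peak, was internal when it lay inside the span of at least 1 gene and more than 500 bp from both ends of every gene. By this rule 2515 of 9327 nuclear summits in the 4 deposited lists were internal. They numbered 720 of 2664 in RT7 EtOH, 310 of 1377 in RT7 4-OHT, 866 of 3100 in RT10 EtOH and 619 of 2186 in RT10 4-OHT. RT7 cells have the genotype R26CreERT2/+;Taf7flox/flox and RT10 cells R26CreERT2/+;Taf10flox/flox, so both lines, controls included, carry a tamoxifen-inducible Cre at Rosa26. Cells received ethanol (EtOH) or 4-hydroxytamoxifen (4-OHT), which induces deletion of the floxed gene, from day 1 to day 3, in medium with leukemia inhibitory factor, CHIR99021 and PD0325901. Each genotype is represented by 1 line, and the labels do not say whether the 2 TBP libraries of a group came from separate cultures. Each group had 1 deposited list, so the treatments were described and not tested. Where 4 values follow without names, they stand for RT7 EtOH, RT7 4-OHT, RT10 EtOH and RT10 4-OHT in that order.

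TBP, the TATA-binding protein, is a DNA-binding subunit of TFIID, which also holds TBP-associated factors such as TAF7 and TAF10. TBP nucleates the assembly of RNA polymerase II initiation complexes. A gene span can contain more than the promoter at its outer end. Alternative promoters, enhancers and promoters of unlisted transcripts can all lie within it, and TBP is known to be found at promoters and at active enhancers. CUT&RUN maps a protein by tethering a nuclease to its antibody and sequencing the DNA that is released.

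Some internal summits lay at transcript starts that RefSeq lists inside a longer gene. Of the starts that had a nearby summit (250 bp or less) in every list, those of the 5 genes with the highest mean EtOH score are shown, since they let the bases beneath internal TBP be read. They were chosen after their values were seen. Each line gives the 250 bases before the start, 5′ to 3′ on the gene's strand, from RefSeq, assembly GRCm38.p6 (mm10). Capitals mark matches on either strand to the TATA element TATAAA, the GC box GGGCGG, the CCAAT box and the octamer ATTTGCAT.
H3f3b, chr11:116024505-116024754, minus strand: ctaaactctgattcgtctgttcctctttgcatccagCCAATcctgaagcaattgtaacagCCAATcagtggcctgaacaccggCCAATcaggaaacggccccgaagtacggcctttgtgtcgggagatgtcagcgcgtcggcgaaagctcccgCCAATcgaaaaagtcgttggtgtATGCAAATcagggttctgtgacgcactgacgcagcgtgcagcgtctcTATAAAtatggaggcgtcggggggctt
Ubap2, chr4:41275136-41275385, minus strand: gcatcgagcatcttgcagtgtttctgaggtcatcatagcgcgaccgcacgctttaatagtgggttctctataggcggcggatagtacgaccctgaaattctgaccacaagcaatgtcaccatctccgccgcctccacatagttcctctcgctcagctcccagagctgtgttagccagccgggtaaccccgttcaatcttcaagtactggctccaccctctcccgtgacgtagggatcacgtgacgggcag
H2bc6, chr13:23585971-23586220, minus strand: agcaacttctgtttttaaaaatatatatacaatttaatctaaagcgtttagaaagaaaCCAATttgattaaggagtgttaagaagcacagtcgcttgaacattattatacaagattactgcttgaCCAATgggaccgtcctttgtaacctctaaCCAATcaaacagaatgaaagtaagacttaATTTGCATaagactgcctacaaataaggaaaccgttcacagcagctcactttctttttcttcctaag
Rfx1, chr8:84066586-84066835, plus strand: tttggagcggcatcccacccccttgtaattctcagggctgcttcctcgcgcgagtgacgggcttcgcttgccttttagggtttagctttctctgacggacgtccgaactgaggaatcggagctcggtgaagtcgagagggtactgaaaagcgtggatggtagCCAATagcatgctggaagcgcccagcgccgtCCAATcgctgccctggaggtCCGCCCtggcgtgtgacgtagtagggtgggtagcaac
Sfpq, chr4:127021051-127021300, plus strand: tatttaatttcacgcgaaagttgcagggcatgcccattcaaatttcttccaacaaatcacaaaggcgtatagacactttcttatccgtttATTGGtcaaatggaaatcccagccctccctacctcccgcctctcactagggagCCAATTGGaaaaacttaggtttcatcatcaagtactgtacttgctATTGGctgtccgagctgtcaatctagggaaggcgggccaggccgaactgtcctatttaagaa

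H3f3b, which encodes a replacement histone H3, had TATAAA at −27, 4 CCAAT matches and an octamer at −74, counted to the first base of the match. H2bc6, a histone H2B gene, had 3 CCAAT matches and an octamer at −67 but no TATAAA. Rfx1, a transcription factor gene, and Sfpq, which encodes a splicing factor, had CCAAT matches without TATAAA. Ubap2 had none of these matches in the window. The H3f3b start scored 57.8 in RT7 EtOH, 23.8 in RT7 4-OHT, 46.1 in RT10 EtOH and 23.4 in RT10 4-OHT. The score is the authors' own −log10 q of the peak over IgG. The H2bc6 start scored 31.7, 15.3, 35.3 and 16.4 in the same order of lists. The 5 sequences differed in which of these motifs they held.

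Internal summits, like intergenic ones, were fewer than their share of the genome length. They made up 27.0% of nuclear summits in RT7 EtOH (exact 95% interval 25.3 to 28.8) and 22.5% in RT7 4-OHT (20.3 to 24.8). In RT10 the share was 27.9% with EtOH (26.4 to 29.6) and 28.3% with 4-OHT (26.4 to 30.3). Intervals here and below are Clopper-Pearson and cover counting error only. Internal positions made up 45.5% of the length between the first and last gene of each chromosome that held a summit, which leaves out chromosome Y, and gene ends 3.35%. Intergenic summits made up 24.6, 23.7, 25.6 and 25.8% over 51.2% of the length. When every summit was moved by 10 kb, 52.7 to 54.8% fell at internal positions. The lists differ in length, and the RT7 EtOH list shortened by score to the 4-OHT length had 22.6% internal summits. The RT10 EtOH list shortened in the same way had 26.1%.

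Internal summits also scored lower than those at gene ends. Their median score was 4.70 in RT7 EtOH, 4.84 in RT7 4-OHT, 5.45 in RT10 EtOH and 5.01 in RT10 4-OHT. Gene end medians were 7.22, 6.30, 7.21 and 7.27 in that order, and intergenic medians 5.57, 4.44, 5.45 and 5.17, the RT7 4-OHT one below the internal median. Among the 100 highest-scoring summits of a list, 10, 10, 8 and 8 were internal. Each list nevertheless held strong internal summits, the highest scoring 73.4, 47.6, 99.0 and 107.

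Within genes, summits were concentrated toward the ends without being limited to them. In RT7 EtOH 219 lay 0.5 to 2 kb from the nearest gene end, 263 at 2 to 10 kb and 238 beyond 10 kb. In RT7 4-OHT the counts were 106, 109 and 95, in RT10 EtOH 250, 322 and 294, and in RT10 4-OHT 180, 209 and 230. The nearest bin held 28.9 to 34.2% of internal summits over 10.1% of the internal length, and the farthest held 30.6 to 37.2% over 59.4%. At the rule's limit, the nearest summits inside were in Gm20005 at 501 bp and Tmem143 at 502 bp, both in RT7 EtOH, with scores of 3.01 and 4.68. The nearest outside were at Ppp1r10 and Atp6v1a, both at 500 bp in RT10 EtOH, with scores of 2.44 and 7.77.

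**Figure D1:**
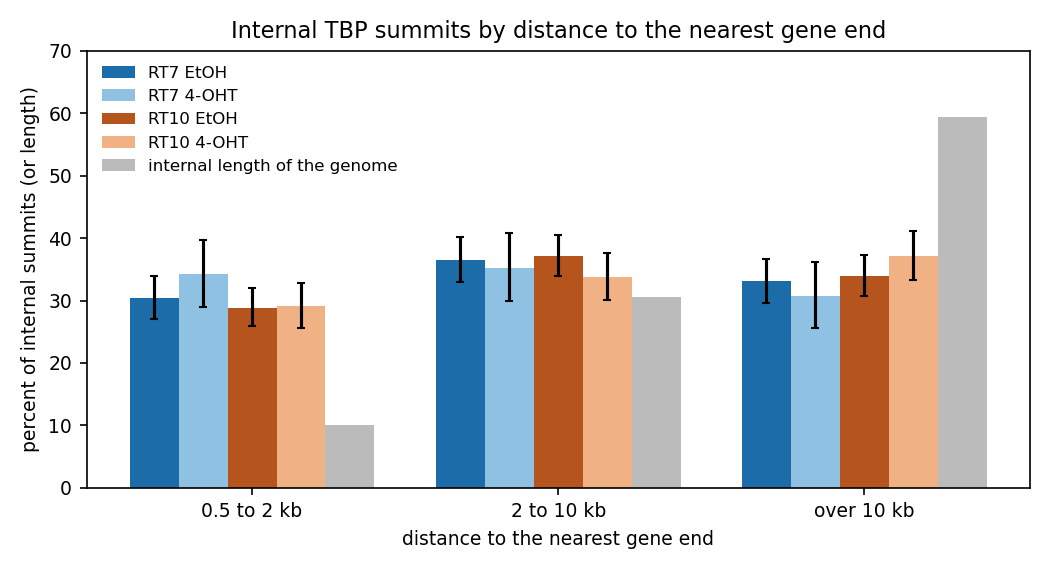
Percent of internal TBP summits (y axis) in 3 ranges of distance to the nearest gene end (x axis), for the 4 lists, with exact 95% intervals as error bars. Grey bars give the percent of the internal genome length, 10.1, 30.5 and 59.4%: the nearest range holds a larger share of summits than of length in each list, and the farthest a smaller one.

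The summits also leaned toward the 5′ side of their hosts, the genes whose spans hold them. For protein-coding hosts of known strand, 64.2% of RT7 EtOH summits (59.7 to 68.5) and 66.2% of RT7 4-OHT ones (59.3 to 72.6) lay nearer to the 5′ end. In RT10 these shares were 66.0% with EtOH (61.9 to 69.9) and 63.0% with 4-OHT (57.9 to 67.9). The same was true of 49.99% of the internal length of such genes. Without summits within 500 bp of a listed start, the shares were 56.5, 56.8, 59.2 and 57.2%. Their intervals were 51.2 to 61.7, 48.4 to 65.0, 54.4 to 63.9 and 51.4 to 62.8. Only the RT7 4-OHT interval included the share of the length. Beyond 10 kb from gene ends the shares were 49.1, 45.5, 52.2 and 48.4%, each with an interval that included the share of the length.

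Listed internal starts accounted for a minority of the summits. RefSeq listed 5988 starts more than 500 bp from every gene end, in 4567 genes, with none given for chromosome 18, whose summits were left out here. A start lay within 250 bp of 96 of 703 internal summits in RT7 EtOH (13.7%, 11.2 to 16.4) and 49 of 305 in RT7 4-OHT (16.1%, 12.1 to 20.7). In RT10 the counts were 110 of 847 with EtOH (12.99%, 10.8 to 15.4) and 52 of 606 with 4-OHT (8.58%, 6.47 to 11.1). After the shift by 10 kb the share was at most 0.427%. The share fell with distance from gene ends, from 22.8 to 14.5 and 4.31% in RT7 EtOH and from 21.3 to 14.6 and 4.18% in RT10 EtOH. Among the summits within 250 bp of a start the median position was before the start, at −105.5 bp in RT7 EtOH, −76 bp in RT7 4-OHT, −85 bp in RT10 EtOH and −74.5 bp in RT10 4-OHT.

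**Figure D2:**
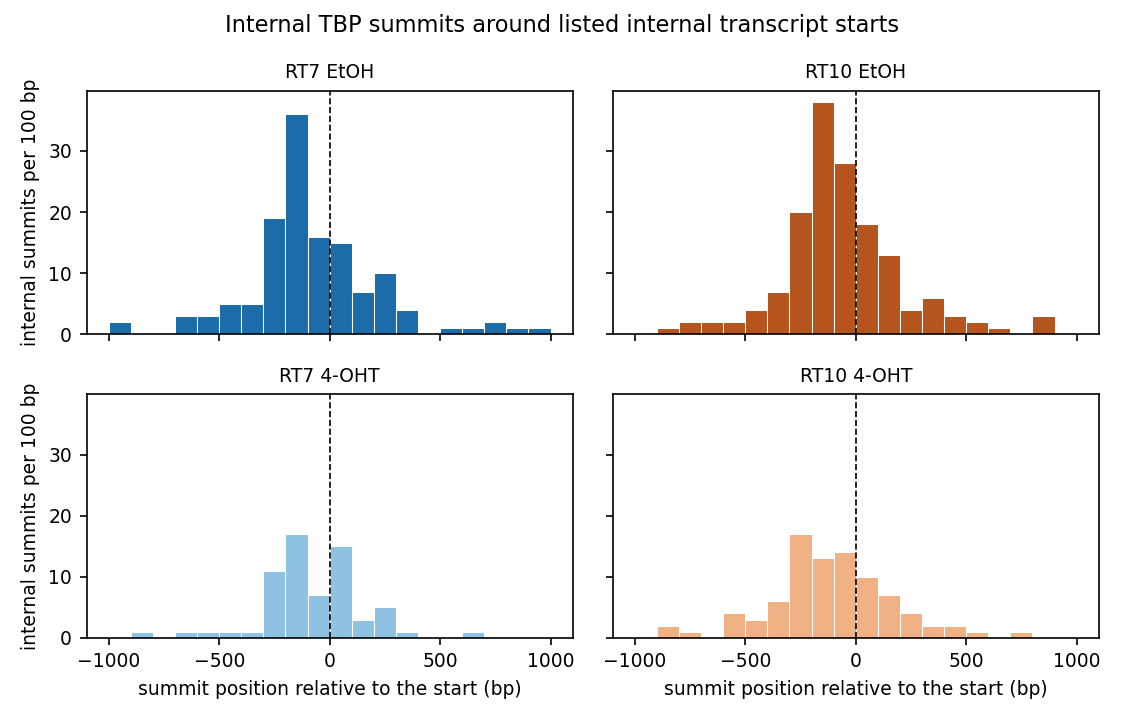
Number of internal TBP summits per 100 bp (y axis) by position relative to the nearest listed internal start (x axis, bp, negative values before the start, dashed line at the start), 1 panel per list. Summits gather close to the start, mostly before it, with medians over the 1000 bp shown on each side of −117 bp in RT7 EtOH and −98.5 bp in RT10 EtOH.

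Most listed internal starts had no TBP summit. Of the 5988, 1.89% had one within 250 bp in RT7 EtOH, 1.05% in RT7 4-OHT, 2.27% in RT10 EtOH and 1.17% in RT10 4-OHT. Over all 32619 listed starts the shares were 3.21, 1.64, 3.72 and 2.26%. In all 4 lists a summit was found at 27 listed internal starts of 23 genes, among them Eif5a, a translation factor gene, and Cirbp, which encodes a cold-inducible RNA-binding protein.

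The windows from 250 bases before to 50 after the start were searched for 9 motifs, and the 2 commonest had like shares at internal starts and at starts at gene ends with TBP summits. GGGCGG, searched on both strands as were all motifs, was in 65.8% of the 76 internal starts with a summit in both EtOH lists (54.0 to 76.3), against 33.8% of listed internal starts. At 652 starts at gene ends with a summit in both EtOH lists it was in 69.6%, and in 35.9% of all listed starts. CCAAT was in 57.9% (46.0 to 69.1), 34.7%, 57.4% and 37.6% of these windows in the same order. TATAAA was in 13.2% (6.49 to 22.9), 11.8%, 17.2% and 13.7%. Median G and C content was 60.0% in the bound internal windows and 53.0% in all listed internal ones, and its part in the GGGCGG share was not tested. With its first base at −40 to −21, TATAAA was in 1 of the 76 windows, or 1.32% (0.0333 to 7.11), and in 5.52% of the bound windows at gene ends. Some genes, such as Hap1, had several listed starts with overlapping windows. The intervals take the windows as separate, so they may be too narrow.

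Merging internal summits that lay within 250 bp of each other gave 1396 sites. Of these, 765 had a summit in 1 list, 284 in 2, 164 in 3 and 183 in all 4. Sites in 1 list were 54.8% of the internal sites, beside 48.3% of all nuclear sites, and sites in all 4 lists 13.1%, beside 18.1%. The median of a site's highest score was 3.45, 5.84, 9.23 and 16.3 in these classes, and the share with a listed start within 250 bp was 8.98, 12.2, 13.9 and 16.6%. A highest value over more lists is larger by construction, so the order of these scores is partly set by the classes. The shares beyond 10 kb from a gene end differed little, at 31.9, 34.2, 34.1 and 33.9%.

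By mean EtOH score the highest site lay in Ing1, which encodes a chromatin reader of the inhibitor of growth family, on chromosome 8 at 11558144. It scored 73.4 in RT7 EtOH, 47.6 in RT7 4-OHT, 99.0 in RT10 EtOH and 26.9 in RT10 4-OHT, and lay 266 bp before a listed start of the gene. Scores of different lists depend on read depths that are unknown, so their order across lists is a description only. The site of Nasp, a histone chaperone gene, scored 40.2, 23.8, 54.1 and 33.1 in the same order. The site of Ubap2 scored 46.1, 30.0, 48.1 and 44.1. H3f3b, Nasp and Ubap2 all lay within 2 kb of a gene end.

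Farther from gene ends, the highest site lay in Cntnap5b, a contactin-associated cell adhesion gene, 69728 bp from the nearest end on chromosome 1 at 100180259. It scored 28.2 in RT7 EtOH, 21.9 in RT7 4-OHT, 69.6 in RT10 EtOH and 107 in RT10 4-OHT, the highest internal score of the 4 lists. Arid5b, which encodes an AT-rich DNA-binding protein, had a site 13452 bp from an end that scored 37.5, 15.9, 31.2 and 26.4. In the 2 to 10 kb range, Pigl, a gene of glycosylphosphatidylinositol anchor synthesis, scored 56.3, 21.4, 35.2 and 28.1. None of these 3 sites had a listed start within 500 bp. The same held for the noncoding RNA genes Gm34755, at 51.8, 29.8, 38.5 and 45.4, and Gm32673, at 41.8, 18.4, 55.4 and 15.0.

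Among the highest sites, 2 had no RT7 4-OHT summit within 250 bp. Hook2, which encodes a microtubule-binding adaptor, scored 49.3 in RT7 EtOH, 49.5 in RT10 EtOH and 45.6 in RT10 4-OHT, 8 bp after a listed start. Etl4 scored 24.5, 39.4 and 28.6 in these lists at 141060 bp from the nearest end, and its nearest RT7 4-OHT summit lay 1017 bp from the RT7 EtOH one. For Hook2 an RT7 4-OHT summit lay beyond 250 bp but within 1000 bp of the RT7 EtOH one.

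**Figure D3:**
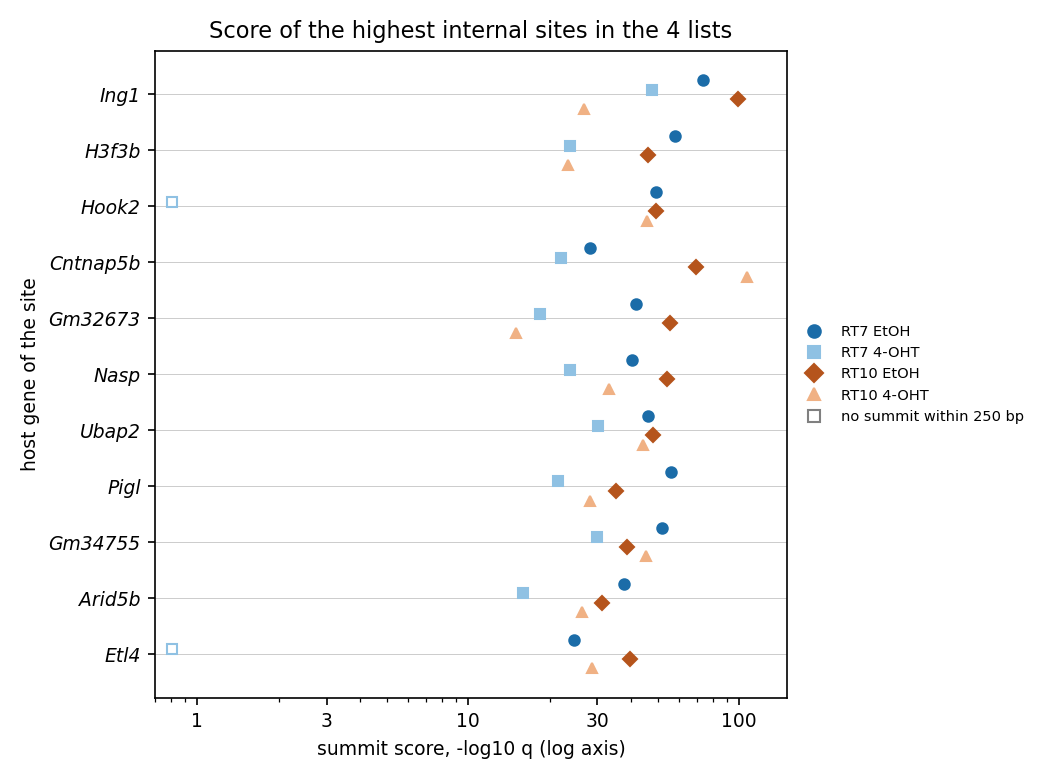
Summit score (x axis, −log10 q, log axis) of the 11 internal sites named for a high EtOH score, by host gene (y axis), with 1 symbol per list, set slightly apart in height. Open symbols at the left edge mark a list without a summit within 250 bp, as for Hook2 and Etl4 in RT7 4-OHT. The Cntnap5b site is highest in RT10 4-OHT, at 107.

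Host genes numbered 1125 of 37188 genes with an internal position, or 3.03%, and 867 of 20144 protein-coding ones, or 4.30%. A further 246 were lncRNA genes. A single site was held by 889 hosts, 2 sites by 170 and 3 or more by 66. Host protein-coding genes had a median span of 43560 bp, against 19632 bp for all protein-coding genes with an internal position, so longer genes were more often hosts. Of protein-coding hosts, 10.4% in RT7 EtOH (7.88 to 13.4) also had a summit within 500 bp of an own end, against 5.53% of all such genes. The shares were 6.67% (3.86 to 10.6) against 2.76% in RT7 4-OHT, 10.3% (7.97 to 13.04) against 6.24% in RT10 EtOH and 7.19% (4.91 to 10.1) against 3.97% in RT10 4-OHT.

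Slc2a3, which encodes a glucose transporter, held the most sites, with 10 over a span of 74555 bp on chromosome 6, and 3 of them had a summit in every list. Its highest site scored 32.3 in RT7 EtOH, 9.86 in RT7 4-OHT, 24.5 in RT10 EtOH and 9.35 in RT10 4-OHT. Another 4-list site in it scored 2.19, 2.75, 16.3 and 6.33. Tns3, which encodes the focal adhesion protein tensin, Etl4 and the noncoding Gm10069 held 6 sites each, and Spats1 and Gm32525 held 5. Tns3 had none in all 4 lists. Per internal length, Actb, the cytoplasmic actin gene, was densest among hosts with 3 or more sites, at 86.7 per 100 kb from 3 sites, none of them in all 4 lists. Its site at 142906441, with 4-OHT summits only, had an EtOH summit 333 bp away, so these counts depend on the 250 bp limit for merging.

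Of 40 pluripotency genes with an internal position, 10 were hosts, or 25%, beside 4.30% of protein-coding genes. Esrrb, which encodes an orphan nuclear receptor of the ES cell network, scored 13.997 in RT7 EtOH, 15.3 in RT7 4-OHT, 34.0 in RT10 EtOH and 16.9 in RT10 4-OHT at a site 140780 bp from its 5′ end. Tet2, which encodes an enzyme that oxidises methylcytosine, scored 9.42, 5.18, 21.1 and 21.8 at 20231 bp. Etv5, an ETS factor gene downstream of FGF signalling, scored 15.7, 4.44, 11.8 and 3.68 at 36756 bp. None of these 3 sites had a listed start within 500 bp, and each recurred in all 4 lists. Tfcp2l1, a transcription factor gene, had its 1 site in RT10 EtOH only, at 7.73. Lifr, which encodes a receptor subunit for leukemia inhibitory factor, had 3 sites, with no summit in either RT7 list. The site with its highest score had 3.75 in RT10 EtOH and 5.06 in RT10 4-OHT, and the others 4.93 and 4.06 in RT10 EtOH only. Of 26 lineage genes of other cell types, 1 (3.85%), Fn1, was a host, with 6.57 in RT7 EtOH and no summit at that site in the other lists.

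**Figure D4:**
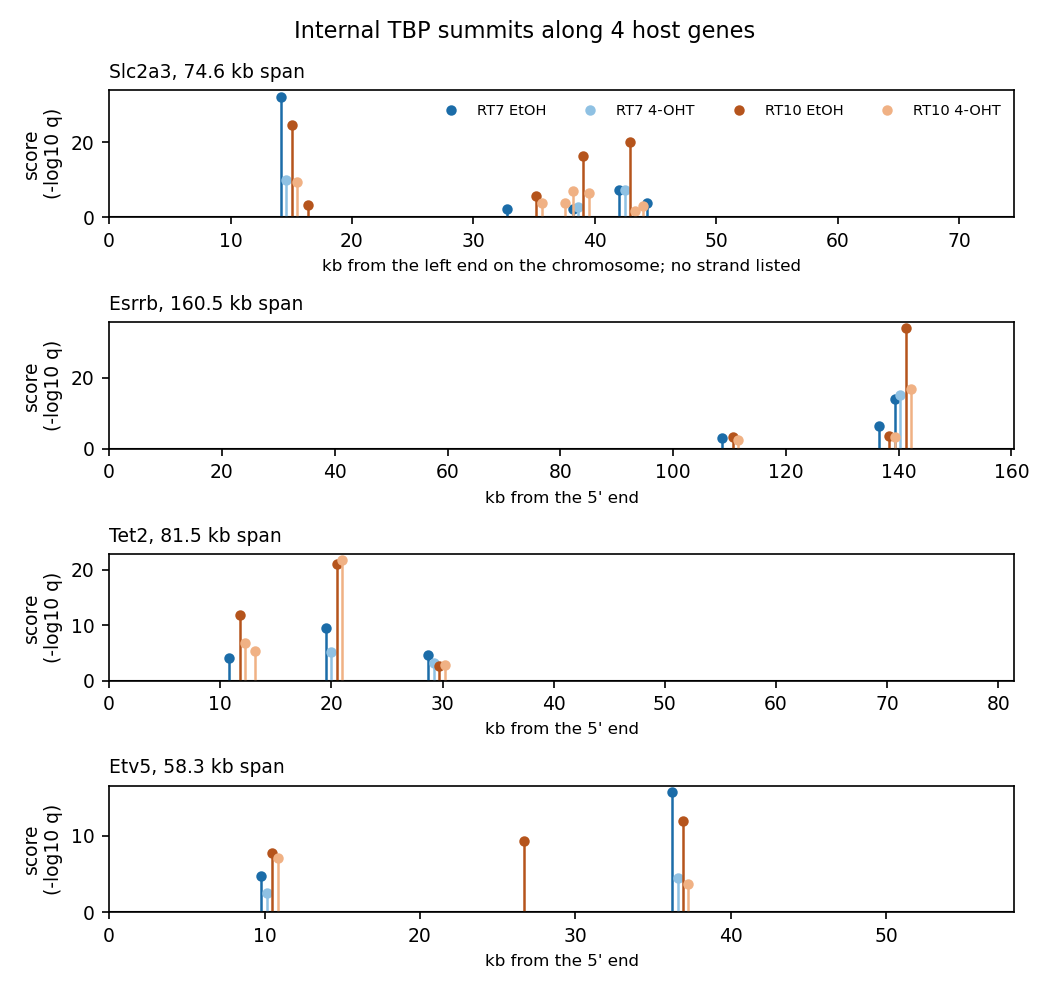
Score (y axis, −log10 q) of internal TBP summits along Slc2a3, Esrrb, Tet2 and Etv5 (x axis, kb from the 5′ end, or from the left end of Slc2a3, which has no strand listed), with lists drawn slightly side by side. The 4-list sites of Esrrb, Tet2 and Etv5 lie 10323 to 140780 bp from the 5′ end, and the sites of Slc2a3 fall in 2 groups.

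Chromatin regulators gave 14 hosts of 56 genes, or 25%, beside 4.30% of protein-coding genes, with a site in all 4 lists in Tet2, Kdm4c, Mtf2 and Arid1a. Mtf2, an accessory subunit of Polycomb repressive complex, scored 9.42, 4.73, 7.62 and 14.5. Kdm4c, a histone demethylase gene, scored 3.83, 11.9, 15.2 and 5.17, 198 bp before a listed start. Of 56 genes of TFIID, SAGA and general factors, 5 were hosts, or 8.93%. Gtf2e2, which encodes a TFIIE subunit, scored 5.93, 12.8, 22.0 and 12.4, and Taf5l, a SAGA subunit gene, 9.91, 7.26 and 16.3 with no RT10 4-OHT summit within 250 bp. An RT10 4-OHT summit just beyond that limit, at 124012239 where the Taf5l site lay at 124011968, scored 10.9. Neither Taf7 nor Taf10 was among the hosts.

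Immediate early and stress genes gave 6 hosts of 43, or 13.95%, beside 4.30% of protein-coding genes. Jund, an AP-1 subunit gene, scored 20.6, 17.7, 32.8 and 11.3 at 948 bp from its 5′ end. Trp53, the p53 gene, scored 11.3, 4.44, 10.9 and 8.46 at 1698 bp, and its target Cdkn1a 7.45, 3.04, 9.74 and 9.23, 65 bp before a listed start. Imprinted genes gave 8 hosts of 50, or 16%, beside 3.03% of all genes. Peg3, a paternally expressed zinc finger gene, scored 20.8, 12.2, 15.4 and 13.9 at 1821 bp from its 5′ end.

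Ribosomal protein genes gave 3 hosts of 72, or 4.17%, and zinc finger genes 18 of 397, or 4.53%, both near the 4.30% of all protein-coding genes. Of the ribosomal protein genes, Rpl19 scored 17.1, 8.71, 14.6 and 14.6. Noncoding hosts of small RNAs gave 3 of 25, or 12%, beside 3.03% of all genes. Very long neuronal and adhesion genes gave 8 of 50, or 16%. Per Mb of internal length these held 0.163 sites, beside 1.12 over all protein-coding genes. Immediate early and stress genes held 30.1 per Mb, ribosomal protein genes 26.2 and pluripotency genes 13.99. Their internal lengths were 265440, 152737 and 1429873 bp, so the rates of the stress and ribosomal protein lists rest on few sites. The rates were not matched for distance to gene ends, near which summits were denser. None of 58 protocadherin genes was a host, beside 4.30% of all protein-coding genes, a share that would give few hosts among 58.

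After 4-OHT, 220 of 720 internal summits of RT7 EtOH had a 4-OHT summit within 250 bp, and are called kept here (30.6%, 27.2 to 34.1), beside 38.7% of all nuclear summits. At gene ends 46.2% were kept and between genes 33.1%. In RT10, 368 of 866 were kept (42.5%, 39.2 to 45.9), beside 48.1% of all nuclear summits, with 52.6% at gene ends and 46.1% between genes. Internal summits were thus kept less often than the whole list in both lines, and with intervals that met those of intergenic summits. In the other direction 226 of 310 RT7 4-OHT internal summits had an EtOH summit (72.9%, 67.6 to 77.8), beside 75.0% of all nuclear summits, and 370 of 619 in RT10 (59.8%, 55.8 to 63.7), beside 68.2%.

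The score of a summit went with being kept. With the whole EtOH list cut into 4 score groups of near equal size, from lowest to highest, 11.9, 17.5, 39.5 and 73.5% of internal summits were kept in RT7 and 16.5, 30.0, 56.7 and 86.9% in RT10. Gene end summits of the same groups gave 18.04, 21.4, 44.4 and 82.1% in RT7 and 25.9, 29.6, 53.5 and 84.7% in RT10. The intervals of internal and gene end shares overlapped in each group, which does not show that the shares were equal. The internal share was the lower in each RT7 group and in the lowest RT10 group, and the higher in the other RT10 groups. A smaller part of internal than of gene end summits lay in the highest group. In RT7 it held 117 of 720 internal and 418 of 1289 gene end summits, and in RT10 137 of 866 and 471 of 1440. With the EtOH lists shortened to the 4-OHT length, 50.8% of internal summits were kept in RT7 and 55.3% in RT10.

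**Figure D5:**
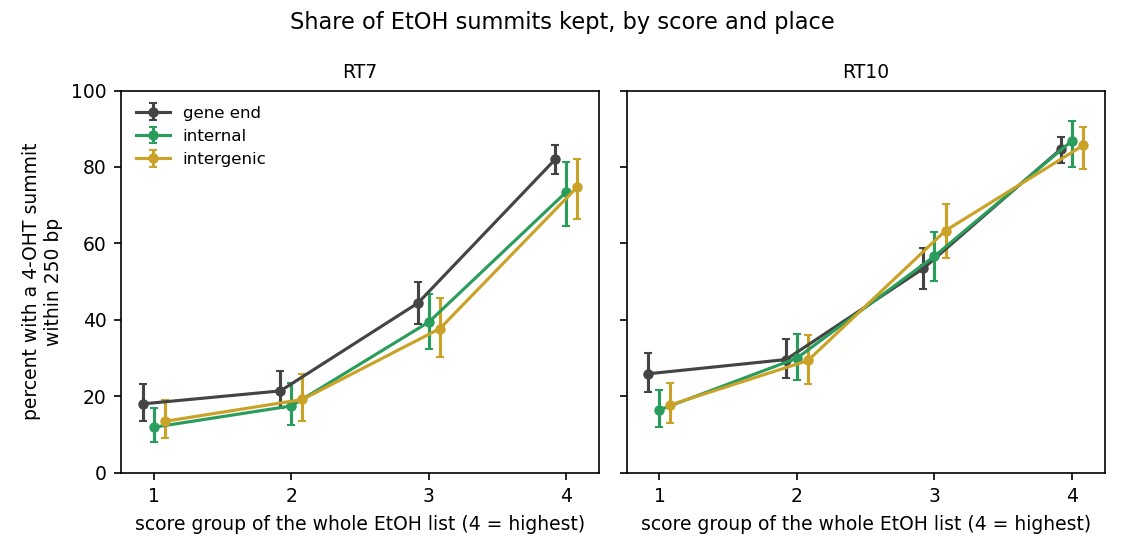
Percent of EtOH summits with a 4-OHT summit within 250 bp (y axis) by score group of the whole EtOH list (x axis, 4 the highest), for RT7 (left) and RT10 (right), with exact 95% intervals. Internal summits rise from 11.9 to 73.5% in RT7 and from 16.5 to 86.9% in RT10, and their intervals overlap those at gene ends in each group.

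The kept share differed little with distance from gene ends. From the nearest to the farthest range it was 30.6, 30.4 and 30.7% in RT7 and 40.0, 40.7 and 46.6% in RT10, with overlapping intervals. Summits with a listed start within 250 bp were kept at 41.7% (31.7 to 52.2) in RT7, against 29.0% (25.4 to 32.8) of those without. In RT10 the shares were 41.8% (32.5 to 51.6) and 42.6% (39.0 to 46.3).

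Between the lines, 432 of 720 RT7 EtOH internal summits had an RT10 EtOH summit (60.0%, 56.3 to 63.6), beside 65.0% of all nuclear summits. Of RT10 EtOH internal summits, 422 of 866 had one in RT7 (48.7%, 45.4 to 52.1), beside 55.7%. Between the 4-OHT lists the shares were 66.1% of RT7 and 32.5% of RT10 internal summits, beside 68.2 and 43.0%.

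Of the 446 sites in both EtOH lists, 183 were in both 4-OHT lists (41.0%), beside 47.1% of all nuclear sites in both EtOH lists. A further 123 were in neither 4-OHT list (27.6%), beside 22.2%. The other 113 and 27 were in RT10 4-OHT only and RT7 4-OHT only, where the 4-OHT lists held 2186 and 1377 nuclear summits. Line, deleted gene and list length cannot be told apart in this difference. The sites in neither 4-OHT list had median EtOH scores of 4.31 in RT7 and 5.14 in RT10, and those in both 4-OHT lists 11.3 and 11.8.

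Hexim2, which encodes an inhibitor of the elongation factor P-TEFb, was in both EtOH lists, at 12.6 in RT7 and 15.2 in RT10, and in neither 4-OHT list, with the nearest 4-OHT summit 16916 bp away. Gm41067 scored 9.42 and 10.6 in the EtOH lists, with none nearer than 960342 bp. Bicral, which encodes a subunit of a SWI/SNF complex, scored 15.9 and 18.3, but a 4-OHT summit lay 308 bp away, just beyond the 250 bp limit. Tsc22d1, at 13.7 and 14.04, had one at 311 bp. In both 4-OHT lists and neither EtOH list there were 14 of the 1396 sites (1.00%), and the like share over all nuclear sites was not computed. The highest lay in Elovl6, a fatty acid elongase gene, at 6.51 in RT7 and 8.24 in RT10, with the nearest EtOH summit 3393 bp away. Some of these sites had an EtOH summit not far beyond the 250 bp limit, at 333 bp for Actb and 378 bp for Zswim1. Others did not, as Pomk, with none nearer than 73264 bp.

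Within RT7, the highest internal EtOH summits with no 4-OHT summit within 1000 bp lay in Etl4, Nmnat2, 4921529L05Rik, Tsen34 and Gm36897. Nmnat2, a NAD synthesis gene, scored 24.3 in RT7 EtOH, 36.7 in RT10 EtOH and 19.6 in RT10 4-OHT. Tsen34, which encodes a tRNA splicing endonuclease subunit, scored 19.7, 11.3 and 2.62 in these lists. All 5 had a summit in both RT10 lists. Within RT10 they lay in Nkx2-2os, Hexim2, Gm6410, Nedd9 and Plxna3, with RT10 EtOH scores of 19.9, 15.2, 14.04, 12.9 and 12.9. Of these, Nkx2-2os, at 4.83 and 4.84, and Plxna3, a semaphorin receptor gene, at 5.57 and 3.10, had summits in RT7 EtOH and RT7 4-OHT. Hexim2, Gm6410 and Nedd9 had a summit in RT7 EtOH, at 12.6, 8.42 and 3.83, and none in RT7 4-OHT within 250 bp. For Gm6410 an RT7 4-OHT summit lay 291 bp away.

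In the other direction, the highest internal 4-OHT summits without an EtOH summit within 1000 bp had lower scores. The 4-OHT lists are shorter and read depths are unknown, so this order across lists is a description only. In RT7 these 4-OHT summits lay in Gm11520 and Pcgf2, both at 7.70, and in Tmem231 and the overlapping Gm36531, at 7.57. Pcgf2, a Polycomb gene, scored 9.92 in RT10 EtOH and 15.4 in RT10 4-OHT, 173 bp before a listed start. In RT10 they lay in Gm36500, Jup, the plakoglobin gene, and Gm35048, at 10.2, 9.66 and 9.23. Of these 6, the site in Gm35048 had no summit in any other list.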

How the data were processed

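TBP CUT&RUN of RT7 and RT10 mouse ES cells was analysed from 4 summit lists, 1 per line and treatment. The deposited value of a summit is the authors' −log10 q against IgG, read from the values and peak names, and the lowest is 1.30. The submitters' processing notes name cutadapt 4.0, Bowtie2 2.4.4, SAMtools 1.15.1, bedtools, deepTools, MACS2 2.2.7.1 and mm10, without roles. Each group has 2 TBP libraries per the labels; whether they were pooled for calling is not stated, and read depth, with the precision it would give, is unknown. IgG libraries titled RT7 EtOH and RT10 4-OHT carry the other treatment as a label; their titles were followed.

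Mitochondrial summits, 2 per list, were left out. Genes came from RefSeq GRCm38.p6, 49943 outside the mitochondrion; transcript starts and strand came from its promoter windows, which cover protein-coding and lncRNA genes only. Exon and intron annotation and motifs at the summits themselves were not analysed here, and motifs were searched in those windows instead. Scores were used to rank, split and filter within a list, and the mean of the EtOH scores of both lines ordered sites for naming. A common minimum of 10 was an alternative. With 1 list per group there are no tests and no p-values.

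Members, gene lists and rules were chosen with earlier results of these data known. Named sites were, per line, the 5 highest EtOH sites in all 4 lists, the 5 highest EtOH summits without a 4-OHT summit and the 3 highest in reverse, the 3 highest per distance range, the 6 hosts with most sites and 4 densest, and up to 4 hosts per list; sites in 1 treatment of both lines and genes of printed sequences were chosen after values were seen. Alternatives were other shared and gene end distances, protein-coding genes only, higher scores, shortened lists, and autosomes and X only. The code was tested on simulated data. Python 3.11.15, NumPy 2.4.6, pandas 2.3.3, SciPy 1.17.1 and matplotlib 3.10.9 were used.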

Additional observations from a re-analysis of the deposited data

How the results depend on the processing

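Under the alternatives 104 values left the interval of the reported share while 122 stayed within it; the cause was not tested except where the setting itself sets the count. Limiting to autosomes and X moved none of 28. With kept meaning 100 bp, the kept shares were 21.8% in RT7 (22.4, 21.7 and 21.4% from the nearest to the farthest range) and 28.9% in RT10 (27.2, 27.3 and 32.0%), the reverse 51.0 and 40.5%, and the shares between EtOH lists 42.9% of RT7 and 35.5% of RT10. At 500 bp RT10 kept 46.3%, the reverse was 79.4 and 65.9% and the lines shared 66.0 and 53.2%. At 1000 bp RT7 kept 36.9% (39.3 and 36.5% in the nearer ranges), RT10 49.3% (50.8 and 46.9%), the reverse was 83.5 and 69.6% and the lines shared 68.9 and 55.4%.

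In the order RT7 EtOH, RT7 4-OHT, RT10 EtOH and RT10 4-OHT, the internal share was 30.8, 27.5, 32.2 and 32.8% at a gene end distance of 250 bp, 22.8, 18.6, 24.2 and 24.2% at 1000 bp and 18.8, 14.8, 19.9 and 20.1% at 2000 bp. It was 18.6, 15.8, 19.8 and 17.0% at scores of at least 10, and 22.4, 18.9, 24.3 and 22.7% in the higher-scoring 50% of each list. With protein-coding genes only it was 23.6% in RT7 EtOH, 24.4% in RT10 EtOH and 23.9% in RT10 4-OHT. The distance ranges then held 25.3, 30.9 and 43.8% in RT7 EtOH, 24.9, 30.2 and 45.0% in RT10 EtOH, 22.4, 26.4 and 51.2% in RT10 4-OHT, and 37.4% beyond 10 kb in RT7 4-OHT. The share of the internal length in each range was not computed for protein-coding genes only, and the length shares given above are for all genes. At scores of at least 10, 29.6% of RT7 EtOH summits lay beyond 10 kb, and 38.3 and 30.8% of RT10 4-OHT ones at 2 to 10 kb and beyond; RT7 kept 22.8% at 2 to 10 kb, the reverse was 81.8 and 74.8%, and RT7 shared 66.2% with RT10. In the higher-scoring 50%, RT10 kept 48.0% in the nearest range and the reverse was 67.7%. The minimum of 10 and the 50% cut were applied to both lists compared, so a partner summit below them counted as absent.

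With the EtOH lists shortened, the internal shares were 22.6 and 26.1%. RT7 kept 50.8% (52.7, 48.8 and 51.5% by range) and RT10 55.3% (53.1, 53.1 and 59.4%), the reverse was 52.9 and 51.1%, and the lines shared 69.8 and 37.4%. With ties in reverse order, an alternative added after seeing the data, these were 22.8 and 26.1%, 51.0% (54.8, 47.6 and 51.5%), 56.0% (53.4, 53.1 and 61.3%), 53.5 and 51.7%, and 70.7 and 38.2%. Of the shares at listed starts, also added later, 500 bp gave 16.6% in both EtOH lists and 12.9% in RT10 4-OHT, scores of at least 10 gave 17.9% in RT7 EtOH, 24.1% in RT7 4-OHT and 11.4% in RT10 4-OHT, and shortening gave 16.6% in RT7 EtOH.

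No paired analysis was possible because each group has 1 list, which carries no replicate number; leaving out a replicate was not possible either. Exon and intron annotation and motifs at the summits were planned and not run. Depth per library is unknown, so a summit absent from a list was not detected there, which does not show that TBP was absent.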
